A study of Mus musculus with 6 samples.

Results

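The genes described are 10 mouse genes of the Hippo pathway, taken by their names in the expression tables: the coactivator genes *Yap1* and *Wwtr1* (which encodes TAZ), the transcription factor genes *Tead1* and *Tead3*, the regulators *Lats2*, *Amotl2* and *Ajuba*, and the target genes *Cyr61*, *Ctgf* and *Ankrd1*. *Cyr61* and *Ctgf* are named *Ccn1* and *Ccn2* in newer annotations. All 10 were listed in each of the 6 libraries, among 20788 genes listed at least once. The libraries came from Tyr-L and Tyr-H cells, 3 of each, which are subclones of B16, a melanoma line of C57BL/6 mice. They were labelled by low and high tyrosinase activity, were grown in the same medium, and no treatment was given to either group in the labels. The subclones were picked as single clones, but how many clones or cultures stand behind each set of 3 libraries is not stated, so p-values measure only the spread between these libraries, which may be technical.

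In the Hippo pathway, a cascade of protein kinases that ends in LATS kinases phosphorylates YAP and TAZ and keeps them out of the nucleus. YAP and TAZ that escape this enter the nucleus and bind TEAD factors, which hold the DNA, and *Cyr61*, *Ctgf* and *Ankrd1* are the targets most often read as their output. *Lats2* and *Amotl2* are targets as well as inhibitors, which makes a feedback loop. In melanoma cells the pathway has been studied for invasion and for loss of the melanocyte state. Activity of YAP and TAZ depends on phosphorylation and location, which RNA levels do not measure.

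Expression was measured as FPKM, fragments per kilobase of transcript and per 1000000 mapped fragments, so levels of different genes can be set side by side. Each library held an estimated 19500000 to 23200000 fragments. Differences are log2 fold changes (Tyr-H minus Tyr-L) on log2(FPKM + 0.1) with their standard error (SE), tested with limma, two-sided, and adjusted by Benjamini-Hochberg over 14336 genes. Calls needed both an adjusted p no higher than 0.05 and a log2 difference of 1 or more, a 2-fold change. Calls covered 8.75% of all tested genes, with 425 higher in Tyr-H and 829 higher in Tyr-L (33.9% of calls higher in Tyr-H), whereas 538 and 588 were called after median ratio scaling (47.8% higher), 599 and 508 after quantile normalization (54.1% higher) and 403 and 1175 after rescaling to equal totals (25.5% higher). Over all tested genes the median difference was -0.15 before and -0.01 after median ratio scaling, which is the level that differences of the 10 genes are read against. All 7 melanocyte markers were listed, from *Tyr*, which was called higher at 19.7 to 23.8 FPKM in Tyr-H against 9.52 to 10.7 in Tyr-L, up to *Tyrp1* at 2989 to 3771 FPKM. *Mitf*, which encodes the lineage factor of melanocytes, was called lower at 23.7 to 26.8 FPKM in Tyr-H against 86.7 to 98.2 in Tyr-L. Of the 7 markers, 1 was higher and 6 were lower in Tyr-H cells with an adjusted p no higher than 0.05, beside 17.9% and 39.9% of all tested genes, and their part in the values of the 10 genes was not tested. Of the other cell types' markers, *Ptprc*, *Cd3e*, *Itgam*, *Cdh5* and *Kdr* were not listed in any library, *Cd68*, a macrophage marker, was at most at 4.45 FPKM, and the summed fibroblast markers reached at most 1.18 FPKM. In such bulk samples, fewer cells with a transcript and less of it in each cell cannot be told apart.

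Of the 10 genes, only *Ankrd1* was called in the values as deposited (1 higher, beside 2.96% of all tested genes called higher, and 0 lower, beside 5.78%). With an adjusted p no higher than 0.05 alone, *Wwtr1*, *Cyr61* and *Ankrd1* were higher in Tyr-H cells and *Yap1*, *Tead1*, *Lats2* and *Amotl2* were lower, 7 of 10 beside 57.8% of all tested genes. *Tead3*, *Ctgf* and *Ajuba* did not pass. The groups did not overlap in the same 7 genes, 3 higher and 4 lower in Tyr-H, beside 20.2% and 43.8% of all tested genes (64.0% in all), so neither count sets the 10 genes apart from the rest. Their median log2 fold change was -0.16, beside -0.15 for all tested genes. By adjusted p, 4 of the 10 were higher and 3 lower after median ratio scaling, beside 27.8% and 27.0% of all tested genes. Quantile normalization gave the same counts, beside 25.9% and 27.9%. Under both scalings *Ajuba* passed as higher and *Lats2* did not pass. The coactivators differed in opposite directions, and the TEAD genes and the targets by unequal amounts.

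**Figure D1:**
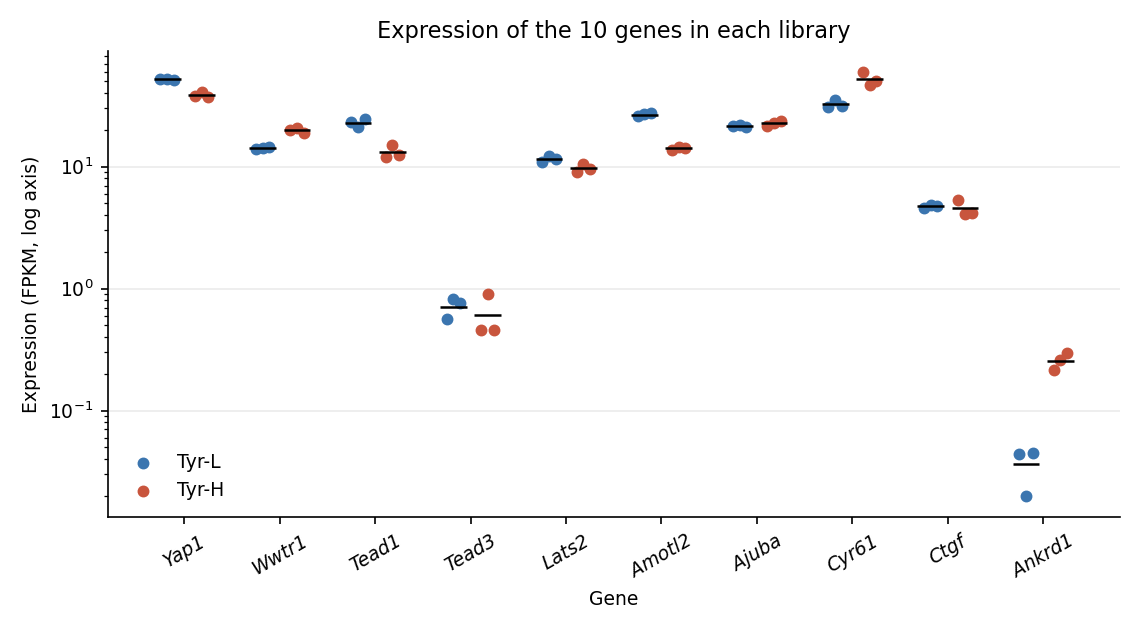
Expression (FPKM, log axis) of the 10 genes in the 3 Tyr-L (blue) and 3 Tyr-H (red) libraries, with points for libraries and lines for group means. The points of the groups are separate for 7 genes and overlap for *Tead3*, *Ctgf* and *Ajuba*.

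The coactivator genes moved in opposite directions. *Yap1* (ENSMUSG00000053110, chromosome 9 of GRCm38, 7931999 to 8004596) had levels of 52.4, 52.5 and 51.5 FPKM across Tyr-L libraries against 38.0, 40.7 and 37.5 across Tyr-H libraries. The highest Tyr-H library was below the lowest Tyr-L library, and *Yap1* was 1.35-fold lower in Tyr-H cells (log2 fold change -0.43, SE 0.04, adjusted p = 2.1e-05 from limma). *Wwtr1* (ENSMUSG00000027803, chromosome 3, 57455649 to 57575910) encodes TAZ, which shares the TEAD-binding and WW domains of YAP. It had levels of 14.01, 14.2 and 14.5 FPKM across Tyr-L libraries against 19.99, 20.6 and 19.0 across Tyr-H libraries. All Tyr-H libraries were above all Tyr-L libraries, a 1.39-fold difference (log2 fold change 0.48, SE 0.05, adjusted p = 3e-05 from limma). *Yap1* shares 116 exonic bases with *Gm20416* on the opposite strand, which was listed in none of the libraries. Both directions held under the 3 other scalings, with log2 fold changes of -0.52 to -0.27 for *Yap1* and of 0.38 to 0.63 for *Wwtr1*.

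A ratio of 2 genes within a library does not depend on any factor that multiplies the whole library. The ratio of *Yap1* to *Wwtr1* was 3.74, 3.69 and 3.55 in the Tyr-L libraries and 1.90, 1.97 and 1.98 in the Tyr-H libraries. It averaged 1.95 ± 0.04 in Tyr-H against 3.66 ± 0.10 in Tyr-L (SD, n = 3 per group), without overlap (two-sided p = 0.1 by exact permutation, below which 3 against 3 cannot go). *Wwtr1* made up 33.9% ± 0.493 of the summed coactivator FPKM in Tyr-H against 21.5% ± 0.467 in Tyr-L (SD, n = 3 per group). The sum itself differed less, at 58.6 ± 2.5 FPKM in Tyr-H against 66.4 ± 0.351 in Tyr-L (log2 ratio -0.18), and after median ratio scaling the log2 ratio was -0.03.

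**Figure D2:**
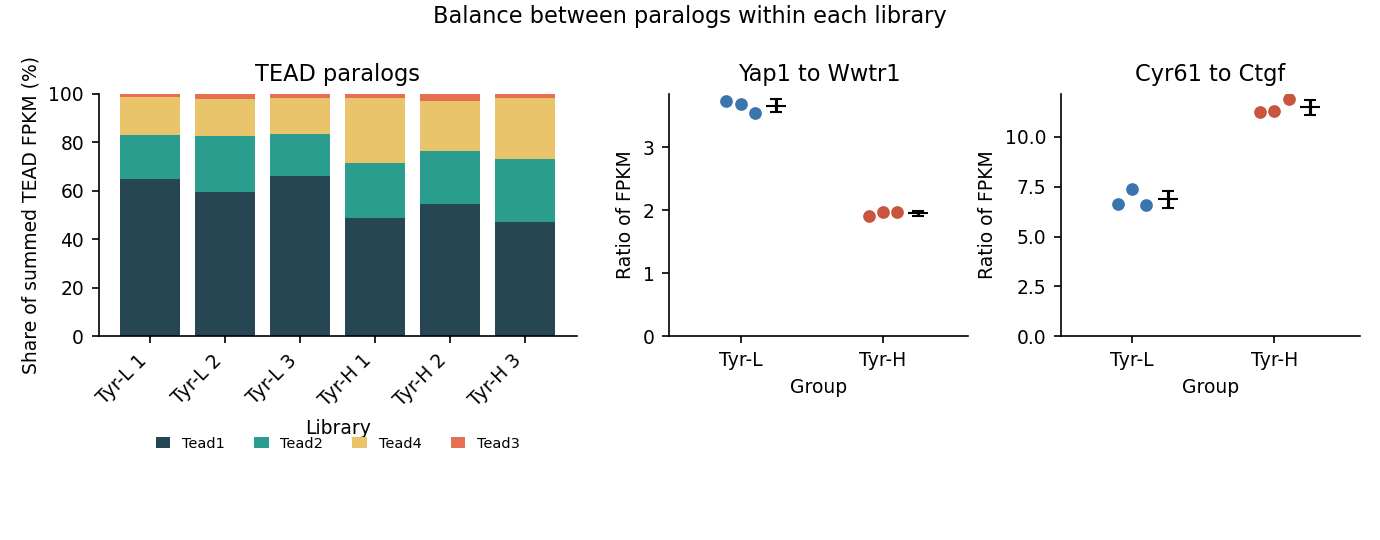
Left, share of each TEAD gene in the summed TEAD FPKM of each library (stacked bars, %). Middle and right, within-library ratios of *Yap1* to *Wwtr1* and of *Cyr61* to *Ctgf* (points, libraries; bars beside them, mean ± SD, n = 3). *Tead1* holds 47.1% to 54.4% in Tyr-H and 59.2% to 65.9% in Tyr-L libraries, and neither ratio overlaps between the groups.

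The promoters of both coactivator genes held the letters CATTCC, the core of the element that TEAD factors bind. The 250 bases before the annotated start are given on the strand of the gene from RefSeq on GRCm38.p6, with the match in capitals and all other bases in lower case, where GGAATG is the same element on the opposite strand.
*Yap1* (chr9:8004597-8004846, minus strand): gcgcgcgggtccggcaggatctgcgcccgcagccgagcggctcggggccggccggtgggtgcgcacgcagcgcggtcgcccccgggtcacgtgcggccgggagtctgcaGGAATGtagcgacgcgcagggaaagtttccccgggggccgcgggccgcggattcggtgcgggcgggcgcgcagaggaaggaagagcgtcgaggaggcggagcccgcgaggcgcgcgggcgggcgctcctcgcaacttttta
*Wwtr1* (chr3:57575911-57576160, minus strand): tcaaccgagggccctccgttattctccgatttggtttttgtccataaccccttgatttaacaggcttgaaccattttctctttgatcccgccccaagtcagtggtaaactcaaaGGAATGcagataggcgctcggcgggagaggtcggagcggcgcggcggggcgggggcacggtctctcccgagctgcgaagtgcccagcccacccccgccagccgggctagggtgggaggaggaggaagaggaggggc
The match began 141 bases before the start of *Yap1*, whose level was lower, and 136 bases before that of *Wwtr1*, whose level was higher in Tyr-H cells. The window of *Yap1* also touches an exon of *Gm45494*. The same letters stood before genes that differed in opposite directions.

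Of the TEAD genes as deposited, only *Tead1*, the most abundant of the family, passed an adjusted p of 0.05. *Tead1* (ENSMUSG00000055320, chromosome 7, 112679318 to 112906807) had levels of 23.1, 21.03 and 24.7 FPKM across Tyr-L libraries against 12.1, 15.2 and 12.5 across Tyr-H libraries. The groups did not overlap and *Tead1* was 1.74-fold lower in Tyr-H cells (log2 fold change -0.80, SE 0.09, adjusted p = 6.6e-05 from limma), short of the 2-fold threshold. *Tead3* (ENSMUSG00000002249, chromosome 17, 28331671 to 28350817) was low and variable, with 0.560, 0.818 and 0.762 FPKM across Tyr-L against 0.461, 0.905 and 0.460 across Tyr-H libraries. Its groups overlapped, and the 95% interval of its log2 fold change ran from -0.85 to 0.36 (adjusted p = 0.46 from limma). These values are worth an estimated 32 to 70 fragments per library.

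The other 2 members of the family were measured as well. *Tead2* had 6.18 ± 0.5845 FPKM in Tyr-H against 7.10 ± 0.963 in Tyr-L (SD, n = 3 per group), and its groups overlapped (-0.19 on the log2 scale, adjusted p = 0.15 from limma). After rescaling to equal totals *Tead2* passed as lower (-0.29, adjusted p = 0.032 from limma). *Tead4* had 6.35 ± 0.553 FPKM in Tyr-H against 5.50 ± 0.0851 in Tyr-L (SD, n = 3 per group), a difference of 0.20 on the log2 scale (adjusted p = 0.055 from limma). *Tead4* passed as higher after median ratio scaling (0.35, adjusted p = 0.005 from limma) and not after rescaling to equal totals (0.11, adjusted p = 0.28). The summed TEAD level was 26.4 ± 1.56 FPKM in Tyr-H against 36.3 ± 1.1 in Tyr-L (SD, n = 3 per group), without overlap (exact permutation test, two-sided, p = 0.1, log2 ratio -0.46). *Tead1* supplied 50.1% ± 3.83 of this sum in Tyr-H against 63.3% ± 3.56 in Tyr-L, and *Tead4* 24.2% ± 3.27 against 15.2% ± 0.604 (SD, n = 3 per group). The shares of *Tead2* and *Tead3* overlapped between the groups. Set against the summed TEAD level, *Yap1* stood at a ratio of 1.47 ± 0.06 in Tyr-H against 1.44 ± 0.06 in Tyr-L (SD, n = 3 per group), which overlapped (exact permutation test, two-sided, p = 0.6). With *Wwtr1* added, the ratio of coactivators to TEAD was 2.23 ± 0.11 in Tyr-H against 1.83 ± 0.06 in Tyr-L (SD, n = 3 per group), without overlap (p = 0.1, exact permutation test).

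The 3 regulators differed from each other, and the largest difference was in *Amotl2*. *Amotl2* (ENSMUSG00000032531, chromosome 9, 102716672 to 102733418) encodes an angiomotin family protein that binds YAP and holds it in the cytoplasm. It had levels of 25.9, 26.8 and 27.6 FPKM across Tyr-L libraries against 13.7, 14.5 and 14.3 across Tyr-H libraries, a clear gap between the groups. It was 1.88-fold lower in Tyr-H cells (log2 fold change -0.91, SE 0.04, adjusted p = 6.5e-07 from limma), just under the 2-fold threshold, and rescaling to equal totals took it past (-1.01).

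*Lats2* (ENSMUSG00000021959, chromosome 14, 57689662 to 57758388), which encodes a kinase that phosphorylates YAP and TAZ, had levels of 10.8, 12.2 and 11.6 FPKM across Tyr-L libraries against 9.05, 10.4 and 9.56 across Tyr-H libraries. The gap was narrow, with a log2 fold change of -0.25 (SE 0.07, adjusted p = 0.013 from limma) that was not distinguishable from 0 after median ratio scaling (-0.10, adjusted p = 0.25) or quantile normalization (-0.09, adjusted p = 0.3). Without Tyr-L library 2 it was -0.21 (adjusted p = 0.051 from limma), so by adjusted p *Lats2* then leaves the 7 genes. The groups still did not overlap, and leaving out any other library gave an adjusted p of 0.0075 to 0.045 from limma. *Lats2* also shares 2955 exonic bases with *Gm49361* on the same strand, which was listed in none of the libraries, so its values are uncertain. *Lats1*, the other LATS kinase gene, was at 11.7 ± 0.401 FPKM in Tyr-H against 15.96 ± 0.25 in Tyr-L (SD, n = 3 per group; log2 fold change -0.44, SE 0.05, adjusted p = 5e-05 from limma). The ratio of *Lats2* to *Lats1* was 0.826 ± 0.0323 in Tyr-H against 0.723 ± 0.0446 in Tyr-L (SD, n = 3 per group), without overlap (exact permutation test, two-sided, p = 0.1).

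*Ajuba* (ENSMUSG00000022178, chromosome 14, 54567472 to 54577558) encodes a LIM protein that binds LATS kinases. It had levels of 21.5, 22.1 and 21.3 FPKM across Tyr-L libraries against 21.6, 22.7 and 23.8 across Tyr-H libraries, and the groups overlapped. Its log2 fold change was 0.07 (95% interval -0.04 to 0.17, adjusted p = 0.25 from limma), with a sign that turned to -0.03 after rescaling to equal totals, whereas after median ratio scaling it was 0.22 (adjusted p = 0.0031).

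*Amotl2* and *Ajuba* are shown because the same TEAD-type letters stand in the promoter of a gene that differed and of one whose groups overlapped. The match and 12 bases on each side are given on the strand of the gene (RefSeq, GRCm38.p6), with the match in capitals.
*Amotl2* (chr9:102717727-102717756, plus strand): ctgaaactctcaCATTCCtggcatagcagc
*Ajuba*, distal (chr14:54577830-54577859, minus strand): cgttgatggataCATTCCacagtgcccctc
*Ajuba*, proximal (chr14:54577808-54577837, minus strand): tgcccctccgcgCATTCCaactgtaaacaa
The *Amotl2* match began 65 bases before the start and lies in an exon of 2 other annotated transcripts of the gene. Those of *Ajuba* began 186 and 164 bases before its start, and their windows overlap.

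Of the 3 targets, *Cyr61* and *Ankrd1* were higher in Tyr-H cells and the groups overlapped for *Ctgf*. *Cyr61* (ENSMUSG00000028195, chromosome 3, 145646976 to 145649981), which encodes a secreted matricellular protein of the CCN family that binds integrins, had levels of 30.7, 35.4 and 31.6 FPKM across Tyr-L libraries against 59.8, 46.6 and 50.1 across Tyr-H libraries. All Tyr-H libraries were higher, and the level was 1.59-fold higher in Tyr-H cells (log2 fold change 0.67, SE 0.09, adjusted p = 0.00016 from limma), short of the threshold. Tyr-H library 1 was the highest, and without it the log2 fold change was 0.57.

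*Ctgf* (ENSMUSG00000019997, chromosome 10, 24595442 to 24598683), which encodes the connective tissue growth factor of the same family, did not move with *Cyr61*. It had levels of 4.62, 4.81 and 4.80 FPKM across Tyr-L libraries against 5.31, 4.12 and 4.203 across Tyr-H libraries, which lay on both sides of the Tyr-L values. Its log2 fold change was -0.07 (95% interval -0.30 to 0.17, adjusted p = 0.6 from limma), and its sign turned to 0.08 after median ratio scaling and to 0.10 after quantile normalization. *Ctgf* overlaps *Gm15270* by 665 exonic bases on the opposite strand, but that gene was listed at 0.161 FPKM or less. The ratio of *Cyr61* to *Ctgf* was 6.66, 7.37 and 6.58 in the Tyr-L libraries and 11.3, 11.3 and 11.9 in the Tyr-H libraries. The groups did not overlap, at 11.5 ± 0.367 in Tyr-H against 6.87 ± 0.43 in Tyr-L (SD, n = 3 per group, two-sided p = 0.1 by exact permutation). Tyr-H library 1 was the highest for each gene but not for the ratio.

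*Ankrd1* (ENSMUSG00000024803, chromosome 19, 36111961 to 36120099), which encodes an ankyrin-repeat protein of muscle and of stressed cells, was near the limit of detection. It had levels of 0.0437, 0.0200 and 0.0453 FPKM across Tyr-L libraries against 0.217, 0.261 and 0.295 across Tyr-H libraries. With the estimated depths these values are worth about 2, 1 and 2 fragments in Tyr-L and 9, 12 and 13 fragments in Tyr-H libraries, and all 3 Tyr-L values are under the 0.064 to 0.0762 FPKM that 3 fragments would give. The ratio of the fragment sums, 34 against 5 and corrected for depth, was 6.65 with an exact 95% counting interval of 2.59 to 21.8. The fitted log2 fold change was 1.39 (SE 0.30, adjusted p = 0.0032 from limma), a value that depends on the pseudocount, since with 1 FPKM added in place of 0.1 it was 0.28 and the call was lost, and with 0.01 FPKM it was 2.57. *Ankrd1* passed the filter on low values through the Tyr-H libraries alone.

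The promoter of *Cyr61* and the matches in that of *Ankrd1* are given in the same way, for the 2 targets that were higher in Tyr-H cells.
*Cyr61* (chr3:145649986-145650235, minus strand): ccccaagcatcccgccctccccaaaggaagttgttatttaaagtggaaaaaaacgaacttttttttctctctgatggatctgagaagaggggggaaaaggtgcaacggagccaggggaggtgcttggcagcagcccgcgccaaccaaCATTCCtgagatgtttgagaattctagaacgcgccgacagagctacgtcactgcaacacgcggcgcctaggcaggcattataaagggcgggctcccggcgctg
*Ankrd1*, distal (chr19:36120037-36120066, minus strand): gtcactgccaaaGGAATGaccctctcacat
*Ankrd1*, proximal (chr19:36119950-36119979, minus strand): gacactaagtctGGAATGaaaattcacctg
The *Cyr61* match began 103 bases before the start, and those of *Ankrd1* 210 and 123 bases before it, both in an exon of another annotated transcript of *Ankrd1*.

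Promoter windows of 300 bases (250 before to 50 after a start) were matched for 8 of the 10 genes, all but *Tead1* and *Ctgf*, as 12 windows. CATTCC was searched on both strands, and at least 1 window of each of the 8 genes held it, in 10 of 12 windows. Among all windows of this length 14.7% held it, and 16.6% of all genes held it in any of their windows. The windows of *Wwtr1* overlap and hold the same match. The AP-1 letters TGANTCA, which read the same on both strands, were in none of the 12 windows and in 7.81% of all windows. The genes with CATTCC included some that were higher, some that were lower and some whose groups overlapped, and no test was made of this count. Letters in a window are a description and not a bound site.

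**Figure D3:**
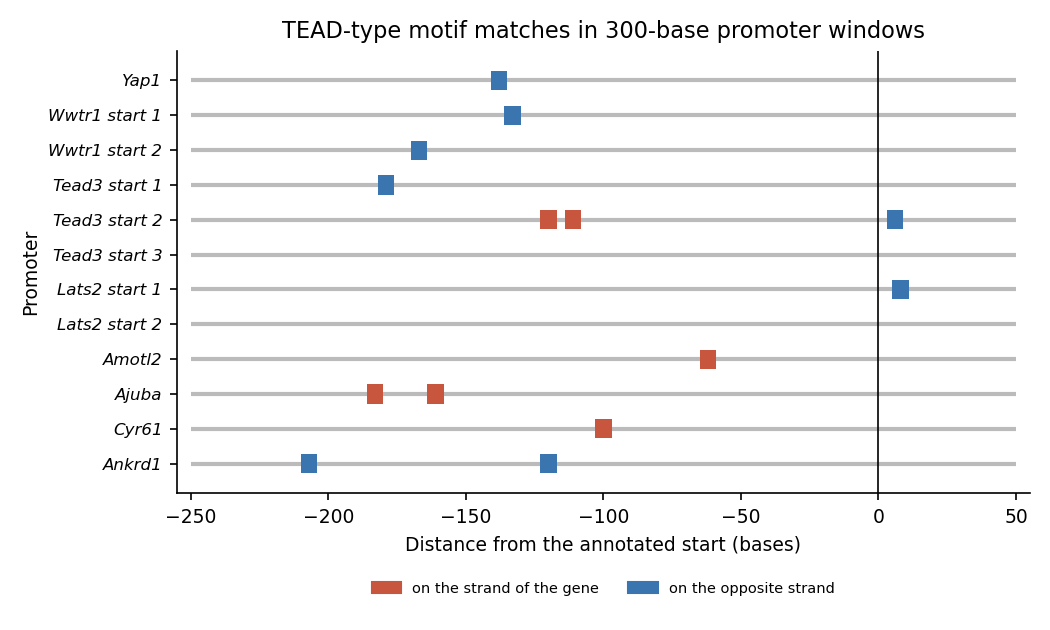
Matches to the TEAD-type letters in 12 promoter windows of 8 genes, by distance from the annotated start (bases), red on the strand of the gene and blue on the opposite strand. Of the 12 windows, 10 hold a match and the third *Tead3* and the second *Lats2* window hold none.

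**Figure D4:**
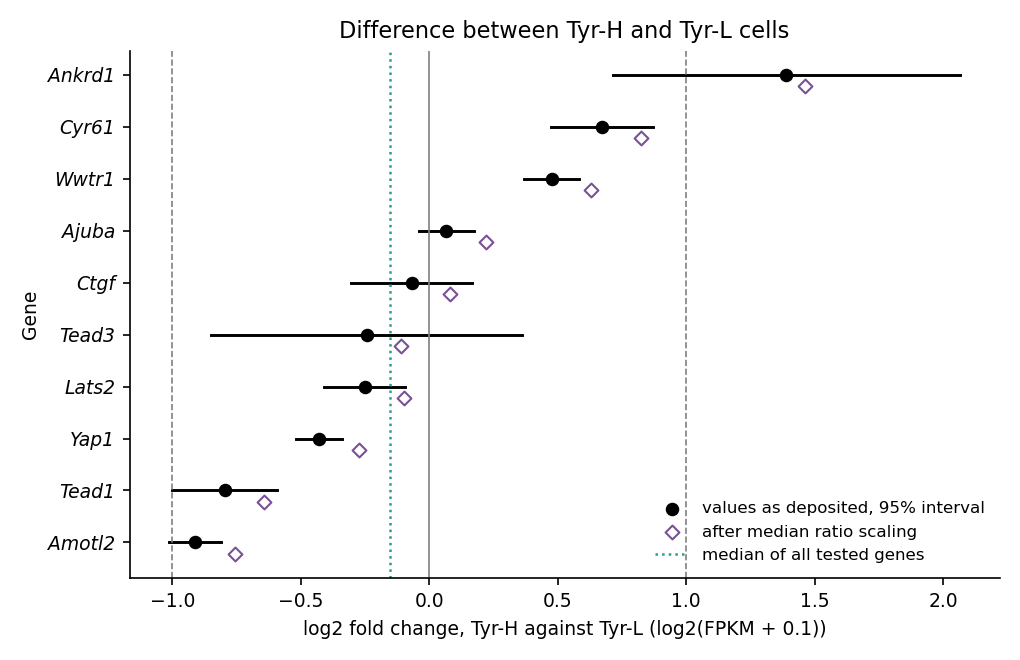
Log2 fold change (Tyr-H minus Tyr-L) with its 95% interval (black), the same after median ratio scaling (open diamonds) and the median of all tested genes (dotted line, -0.15). Dashed lines mark the threshold of 1. *Ankrd1* lies past it, *Amotl2* at -0.91 and *Tead1* at -0.80 lie just inside it, and the sign of *Ctgf* turns with the scaling.

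The order of the levels changed at the top. In Tyr-L cells *Yap1* was the highest, followed by *Cyr61*, *Amotl2*, *Tead1*, *Ajuba*, *Wwtr1*, *Lats2*, *Ctgf*, *Tead3* and *Ankrd1*, and only *Tead1* and *Ajuba* overlapped as neighbours. In Tyr-H cells *Cyr61* came before *Yap1*, followed by *Ajuba*, *Wwtr1*, *Amotl2*, *Tead1*, *Lats2*, *Ctgf*, *Tead3* and *Ankrd1*, and only *Amotl2* and *Tead1* overlapped as neighbours.

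The rest of the pathway was described by lists of genes, with no gene of it called outside the targets. Of 10 genes for YAP, TAZ, TEAD and the VGLL cofactors, which bind TEAD factors, 8 were tested, 1 was higher and 4 were lower with an adjusted p no higher than 0.05, with a median of -0.20. After median ratio scaling 2 were higher and 2 lower, with a median of -0.05. The most abundant was *Vgll4*, a TEAD-binding corepressor gene, with 58.3 ± 0.875 FPKM in Tyr-H against 63.0 ± 2.45 in Tyr-L (SD, n = 3 per group). *Vgll3* came after *Yap1*, with 38.7 ± 2.1 FPKM in Tyr-H against 44.8 ± 1.69 in Tyr-L (SD, n = 3 per group). Of the Hippo kinases and upstream regulators, 18 of 20 were tested, 3 were higher and 12 lower, with a median of -0.25. After median ratio scaling 5 were higher and 7 lower with a median of -0.09, and after rescaling to equal totals 0 were higher and 12 lower, so the balance of this list followed the scaling. The 3 most abundant were *Mob1a*, a LATS activator gene (log2 fold change 0.17, adjusted p = 0.0024 from limma), *Map4k4* (0.04, adjusted p = 0.46) and *Nf2*, which encodes merlin (0.14, adjusted p = 0.0084), and neither *Mob1a* nor *Nf2* passed after rescaling to equal totals. *Taok2*, an upstream kinase gene named here after its values were seen, was the lowest at -0.71. Of 12 genes whose proteins bind or modify YAP, TAZ or LATS, among them scaffolds, the casein kinases *Csnk1d* and *Csnk1e*, the ubiquitin ligase subunit *Btrc* and the phosphatase *Ptpn14*, 0 were higher and 8 lower, with a median of -0.44, and after median ratio scaling 3 were higher and 8 lower with a median of -0.29. These included *Ywhaz*, an adaptor that retains phosphorylated YAP, at 159 ± 3.65 FPKM in Tyr-H against 193 ± 2.84 in Tyr-L (SD, n = 3 per group), while *Csnk1d* (0.07, adjusted p = 0.097 from limma) and *Amotl1* (0.07, adjusted p = 0.23) did not pass. For all tested genes 17.9% were higher and 39.9% lower by the same rule as deposited, and 27.8% and 27.0% after median ratio scaling. After rescaling to equal totals these shares were 13.0% and 47.8%.

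A list of 22 genes known as YAP and TAZ targets in other cell types, 5 of them among the 10 genes, held changes in both directions. Of the 18 tested, *Ankrd1* and *Axl* were called higher, beside 2.96% of all tested genes, and *Ccdc80* and *Rbms3* were called lower, beside 5.78%. With a mean of at least 1 FPKM or with a pseudocount of 1 FPKM, 1 gene of the list was called higher, as *Ankrd1* was then not tested or not called. With an adjusted p no higher than 0.05 alone 4 were higher and 8 lower, shares near the 17.9% and 39.9% of all tested genes, with a median of -0.08, and after median ratio scaling 7 were higher and 5 lower, with a median of 0.07. *Axl*, a receptor tyrosine kinase gene, had 1.01, 1.05 and 0.868 FPKM across Tyr-L against 2.81, 2.97 and 3.38 across Tyr-H libraries, a 2.94-fold rise (log2 fold change 1.55, SE 0.13, adjusted p = 1.1e-05 from limma). *Ccdc80*, a secreted matrix protein gene, had 12.1, 14.3 and 13.0 FPKM across Tyr-L against 4.50, 3.85 and 4.38 across Tyr-H libraries and was 3.04-fold lower (log2 fold change -1.60, SE 0.09, adjusted p = 9.4e-07 from limma). *Rbms3*, an RNA-binding protein gene, stood at 0.737 ± 0.294 FPKM in Tyr-H against 1.94 ± 0.396 in Tyr-L (SD, n = 3 per group), a log2 fold change of -1.32 (adjusted p = 0.0014 from limma), which with 1 FPKM added in place of 0.1 was -0.76 and not called. *Ptpn14*, a target that also restrains YAP, and *Asap1* were lower by less than 2-fold (-0.38 and -0.34), and *F3*, the tissue factor gene, did not pass (0.10, adjusted p = 0.12 from limma). *Igfbp3*, *Nt5e* and *Nuak2* were listed in 1 library each at 0.0203 FPKM or less and *Foxf2* in none.

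**Figure D5:**
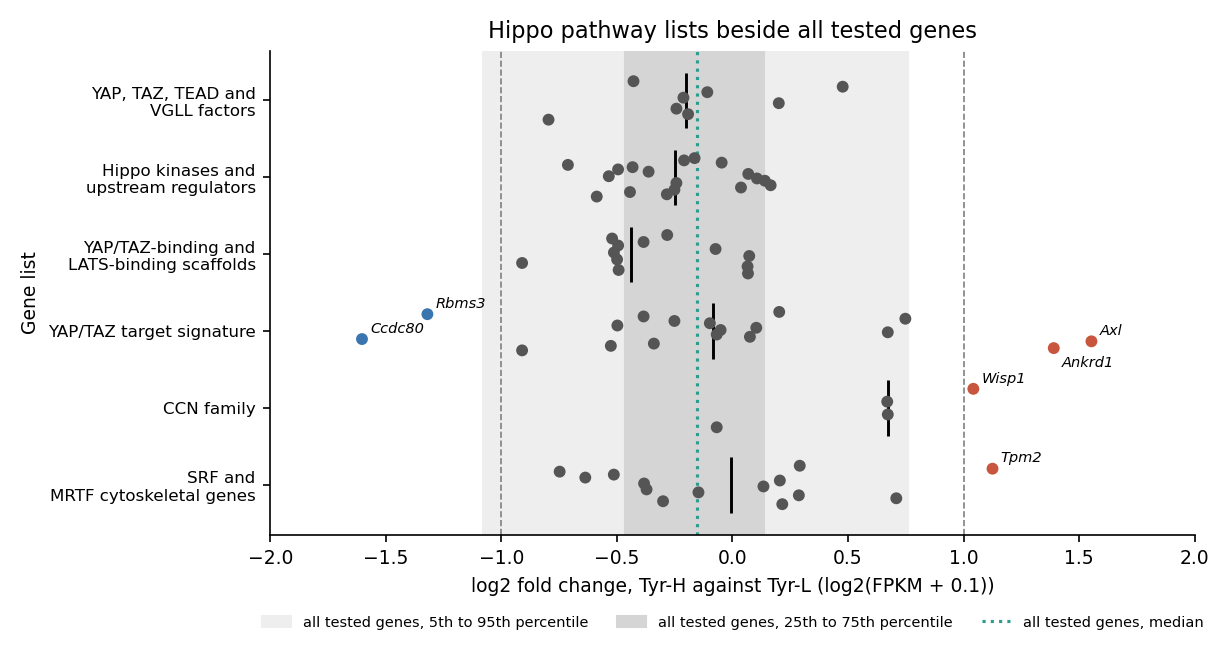
Log2 fold change of each tested gene (points) of 6 Hippo-related lists, with list medians (black bars), beside the spread of all tested genes (grey bands) and their median (dotted line). Genes called higher (red) or lower (blue) are named, and the target list has 2 of each.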

How the data were processed

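Total RNA of 3 Tyr-L and 3 Tyr-H B16 libraries was sequenced as mRNA libraries. The authors deposited 1 table of FPKM values per library. FPKM is scaled to transcript length and to depth. The submitters' processing notes name Trimmomatic, HISAT2, HISAT and GRCm38.p6. The quantifier is not given in the sources used here. Unlisted genes were taken as 0. Groups and replicate numbers came from the labels.

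Testing used 14336 genes (mean over the libraries 0.1 FPKM or more) on log2(FPKM + 0.1) with limma 3.58.1 in R 4.3.3 (eBayes with a variance trend, Benjamini-Hochberg). Single values had an exact permutation test. The fit was tested on simulated data.

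Depth was estimated from the lowest values of single-transcript genes of at least 1500 nt in GENCODE M21, which gives the gene coordinates (from 1). It is approximate, and floors and counting intervals cover counting error only. Promoters were RefSeq's.

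The 10 genes and the lists were chosen with earlier results of these data known. Named are these 10, list genes that were called, and up to 3 more of each list with the highest mean. Other paralogs of the 10 genes, *Taok2*, *Srf*, *Mrtfa*, *Mrtfb* and list genes that were not tested were named outside this rule. Their values had been seen. *Csnk1e* and *Btrc* were named only as examples of their list. Alternatives were other pseudocounts, filters, scalings, variance estimates, fold changes and thresholds, the replicate number as a block, and each library left out. Those for single list genes were chosen after seeing the data. Other steps used Python 3.11.15, scipy 1.17.1, pandas 2.3.3, matplotlib 3.10.9 and numpy 2.4.6.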

Additional observations from a re-analysis of the deposited data

How the results depend on the processing

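Leaving out each library in turn changed no call among the 10 genes, and the number of genes called stayed between 1150 and 1281. A pseudocount of 1 FPKM changed more, as the count over all tested genes went from 1254 to 388, 0 of the 10 genes were called higher (*Ankrd1* at 0.28), and 1 gene of the target list was called higher and 1 lower. With a mean of at least 1 FPKM, 640 genes were called, *Ankrd1* was not tested, 0 of the 10 genes were called higher and 1 of the target list was. Without a fold-change threshold 8292 genes were called, with 3 of the 10 genes higher and 4 lower and with 4 of the target list higher and 8 lower. Rescaling to a total of 1000000 FPKM called 1 of the 10 genes lower (*Amotl2*, -1.01) and turned *Ajuba* to -0.027, and *Ctgf* turned to 0.082 after median ratio scaling and to 0.10 after quantile normalization.

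The log2 ratios of summed levels followed the scaling by construction. After rescaling to equal totals, median ratio scaling and quantile normalization, in this order, they were -0.56, -0.31 and -0.31 for the 4 TEAD genes, -0.27, -0.026 and -0.079 for *Yap1* and *Wwtr1*, and -0.46, -0.21 and -0.21 for *Lats1* and *Lats2*. For *Ctgf* and *Cyr61* they were 0.51, 0.76 and 0.70, beside 0.60 as deposited. Libraries with the same number did not deviate together from their group means (r of -0.17 to 0.03 across 11026 genes, which are not independent replicates). Pairs with different numbers had r of -0.15 to 0.13. These values cannot show whether libraries shared a culture or a run. With the replicate block 1258 genes were called, and no call among the 10 genes changed. With 3 libraries per group, depth limits *Ankrd1* most, at about 1 to 13 estimated fragments per library. *Tead3* had the next lowest level, and the source of its spread was not tested.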

Other observations

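Genes near these targets in family or function gave further values. In the CCN family, *Wisp1* (*Ccn4*), a secreted target of Wnt signalling, had 4.91, 5.16 and 5.05 FPKM across Tyr-L against 9.47, 11.03 and 11.01 across Tyr-H libraries. It was called higher (log2 fold change 1.04, SE 0.08, adjusted p = 4.6e-06 from limma), though at 0.96 after rescaling to equal totals and at 0.93 with 1 FPKM added it was under the threshold. *Nov* (*Ccn3*) ranged from 0.296 to 0.691 FPKM in Tyr-L and from 0.555 to 1.16 FPKM in Tyr-H libraries, which overlapped (adjusted p = 0.11 from limma). *Wisp3* was listed at 0.0748 to 0.0918 FPKM in the Tyr-L libraries and at 0 in the Tyr-H libraries.

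Of 16 genes, namely *Srf*, its cofactor genes *Mrtfa* and *Mrtfb* and cytoskeletal genes that they regulate, 14 were tested, 7 were higher and 3 lower with an adjusted p no higher than 0.05, beside 17.9% and 39.9% of all tested genes. *Srf* was among the higher and *Mrtfb* among the lower, and *Mrtfa* did not pass (-0.15 on the log2 scale, adjusted p = 0.3 from limma). After rescaling to equal totals 3 of the 14 were higher and 4 lower, beside 13.0% and 47.8% of all tested genes. After median ratio scaling 7 were higher and 3 lower, beside 27.8% and 27.0%. Quantile normalization gave 6 and 3, beside 25.9% and 27.9%. *Tpm1*, a tropomyosin gene, was at 199.6 ± 6.81 FPKM in Tyr-H against 335 ± 8.58 in Tyr-L (SD, n = 3 per group, -0.75 on the log2 scale, adjusted p = 6.1e-07 from limma). *Flna*, the filamin A gene, was at 135 ± 1.86 against 111 ± 4.28 FPKM (SD, n = 3 per group, 0.29 on the log2 scale, adjusted p = 0.00012 from limma), and *Actg1*, an actin gene, at 1292 ± 95.9 against 1111 ± 43.2 FPKM (0.22 on the log2 scale, adjusted p = 0.0089 from limma). *Tpm2* was called higher at 0.0703 to 0.254 FPKM in Tyr-H against at most 0.0498 FPKM in Tyr-L libraries, and the call was lost without Tyr-L library 1 or 3 or Tyr-H library 2 or 3 (adjusted p of 0.062 to 0.13 from limma). It passed the filter on low values through the Tyr-H libraries alone, and with 1 FPKM added in place of 0.1 its log2 fold change was 0.21 (adjusted p = 0.055 from limma) and it was not called.

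Among 11026 genes at a mean level of 1 FPKM or more, the profiles over the 6 libraries most like that of *Yap1* were those of *Zdhhc8*, *Map3k1* and *Cnot1*, and those most like that of *Ctgf* were *Enpp2*, *Pla2g5* and *Grwd1*, all by Pearson's r of log2(FPKM + 0.1). As the libraries fall into 2 groups, the first 3 are mostly genes with a step between the groups in the same direction. Pearson's r does not compare the size of the step. The likeness to *Ctgf* rests on the spread among libraries.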
